A study of Mus musculus with 16 samples.

Results

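The genes described here mostly encode ion channel subunits of the mouse hippocampus: potassium channels, voltage-gated sodium and calcium channels, and HCN channels. They were taken by symbol, as every gene on the array whose name starts with Kcn, Scn and a digit, Cacna, Cacnb, Cacng or Hcn and a digit, without the Kv4 complex genes (Kcnd, Kcnip and Kcnab), Kcnj10, Kcnj13, Kcne2 and Kcnq1ot1. A probe set, the group of short probes that reads 1 transcript on the array, was kept when its intensity was above 99 on at least 2 of the 16 arrays. This left 148 of 216 probe sets and 77 of 107 genes, among 27047 of 45037 probe sets and 12734 of 18193 genes in the whole series. The other 68 probe sets, including all those of 30 genes, did not pass. The last probe sets to pass were those of Cacna1h (1427607_at, second highest intensity 99.5), Kcnh7 (102.1) and Kcnj6 (1451868_at, 106.6), and the first to be left out were 1 of Cacng8 (98.9), 1 of Kcns1 (97.4) and another of Cacng8 (96.6).

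Each array held RNA from the hippocampi of 3 to 4 pooled C57BL/6J mice of 1 sex and genotype, so a replicate is a pool. The transcription factor CREB activates genes when it is phosphorylated. VP16-CREB joins it to a viral activation domain, which makes it active without that signal, and A-CREB is a dominant negative protein that binds CREB and keeps it from DNA. The VP16-CREB cohorts held tetO-VP16-CREB mice and WT littermates raised on doxycycline (dox), which keeps the transgene silent. Dox was removed 3 weeks before mice of 6 weeks were used (3 transgenic and 3 littermate pools) or 1 week before mice of 3 weeks were used (2 and 2 pools). The A-CREB cohort held mice labelled TetO-A-CREB-95 C57BL6 F1/J and WT littermates, all 6 weeks old and raised with no dox (3 and 3 pools). The series calls the 1 week mice bitransgenic, and the promoter that drives the tetO transgenes is not given in the sources used here. Dox timing and age differ between both VP16-CREB cohorts, so time off dox and age cannot be told apart. Expression was read on Affymetrix Mouse Genome 430 2.0 arrays as MAS5 intensities on a linear scale.

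Ion channels set how a neuron rests, fires and recovers. Sodium channels drive the upstroke of the action potential, potassium channels repolarise the membrane and hold it at rest, calcium channels couple voltage to transmitter release and to signalling, and HCN channels carry an inward current at negative voltages. Most pores are built from large alpha subunits, while beta, alpha2delta and KCNE subunits change their surface level or gating. CREB activity is known to raise the excitability of hippocampal pyramidal neurons. A tissue RNA level does not separate a change in the number of cells of a type from a change in RNA per cell.

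Promoters of Kcng4 and Kcne1l, both called below, are shown from RefSeq (GRCm38.p6), because CREB acts through promoter elements. The promoter set used here holds no entry for the other called genes, Kcnk6, Kcnu1, Kcns2 and Kcng2. Lower case marks the 250 bases before the start site and capitals the 50 bases after it. Kcng4 lies on the minus strand and its window is chr8:119635631-119635930. Kcne1l also lies on the minus strand, with the window chrX:142306149-142306448.
Kcng4: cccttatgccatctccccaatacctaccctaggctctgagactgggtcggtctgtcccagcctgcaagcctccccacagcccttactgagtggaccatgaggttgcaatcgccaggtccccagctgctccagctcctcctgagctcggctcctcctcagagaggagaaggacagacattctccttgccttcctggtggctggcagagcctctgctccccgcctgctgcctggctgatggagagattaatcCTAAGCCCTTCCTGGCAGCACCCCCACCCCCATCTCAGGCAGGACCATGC
Kcne1l: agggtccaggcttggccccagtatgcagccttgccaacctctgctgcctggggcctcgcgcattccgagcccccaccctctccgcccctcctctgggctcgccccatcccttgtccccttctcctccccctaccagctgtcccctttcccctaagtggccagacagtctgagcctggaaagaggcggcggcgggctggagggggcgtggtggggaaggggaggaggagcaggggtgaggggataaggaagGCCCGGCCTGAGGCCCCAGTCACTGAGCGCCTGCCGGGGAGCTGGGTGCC

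The CREB response element was searched as TGACGTCA and as its half-site TGACG, each on both strands (the half-site also reads CGTCA, and every full element holds it). Neither window above holds one. Over the 81 promoters of 57 of these channel genes, 0 hold the full element and 13 (16%) the half-site. Kcnk6, Kcnu1, Kcns2 and Kcng2 are not among these 57, so the search does not cover them. Over all 32851 promoters of the same 300 bases, the shares are 1.79% (588) and 20.8% (6837). The half-site lies 50 bases before the start site of Kcne4, 64 before that of Kcnc4 and 6 before that of Kcna6, and 37 after that of Kcnj6. These are matches of letters and no measure of binding.

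After 3 weeks off dox, Kcnk6 and Kcne1l were raised about 3-fold in the VP16-CREB hippocampus, Kcng4 was raised less, and Kcnu1, Kcns2 and Kcng2 were lowered. Of the 148 probe sets, 3 were called higher (2.03%) and 4 lower (2.70%) at a Benjamini-Hochberg adjusted p under 0.05 (limma, over all 27047 probe sets). Over all probe sets tested, 3.28% were called higher and 0.651% lower. At an unadjusted p under 0.05, 5 probe sets were higher (3.38%, against 8.97% of all) and 23 lower (15.5%, against 4.5% of all). The transgenic and littermate pools did not overlap for 7 probe sets on the high side (4.73%, against 14.9% of all) and 40 on the low side (27.0%, against 12.8% of all). By gene, at the probe set of highest mean, 60 of 77 (77.9%) were below 0 with a median log2 difference of -0.22. Over all 12734 genes, 50.1% were below 0 and the median was 0.00.

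**Figure D1:**
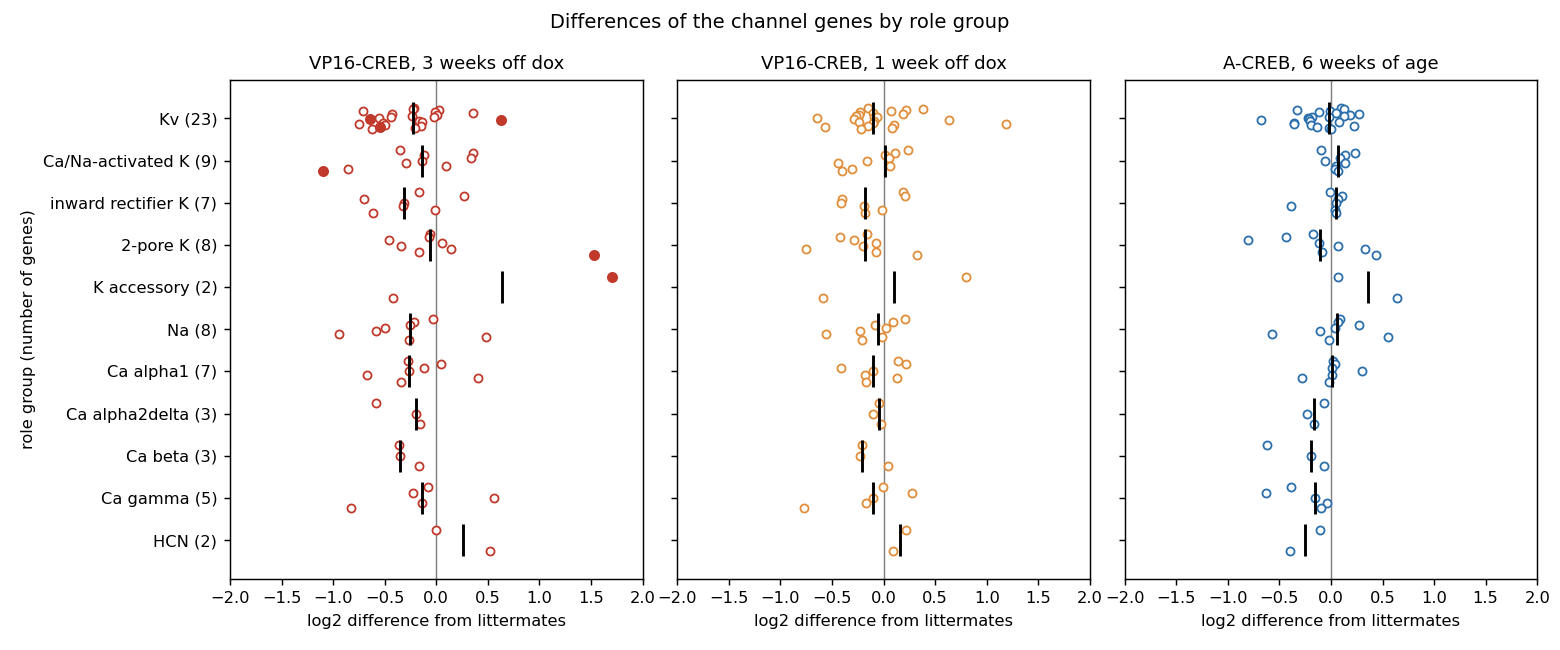
Log2 difference of each channel gene from littermates (x axis), at its probe set of highest mean, by role group (y axis, number of genes in brackets), in the 3 transgene comparisons. Filled points are genes called at an adjusted p under 0.05, open points are not, and the black bar is the median of the group. All filled points are in the panel for 3 weeks off dox, where 60 of the 77 genes lie left of 0.

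The shift differed in size between the VP16-CREB pools at 3 weeks. The median over the 77 genes, relative to the mean of the littermates, was -0.110, -0.283 and -0.261 in the 3 transgenic pools and -0.019, 0.045 and -0.027 in the 3 littermate pools. The transgenic pools had 45, 60 and 58 of 77 genes below the littermates' mean, and the littermate pools 41, 31 and 47. By this count the first transgenic pool lay within the range of the littermates, and by the median it lay below them. Each littermate pool is part of the mean it is set against, which draws its median toward 0. The transgenic pools are not part of that mean. The same median over all genes tested was 0.030, 0.007 and 0.000 in the transgenic pools. The shift of the channel genes was -0.142 without the second littermate pool.

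**Figure D2:**
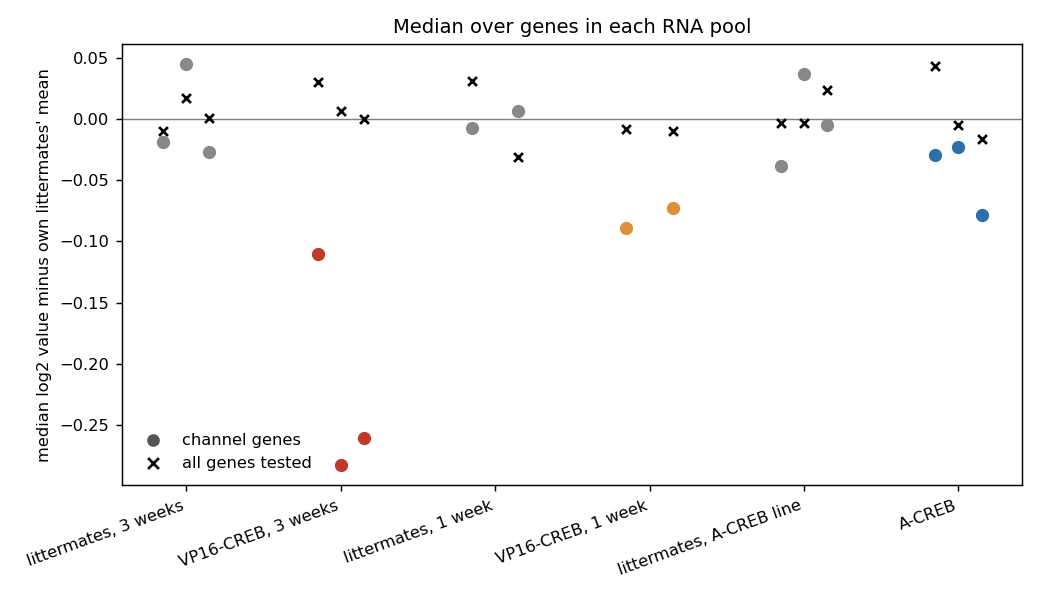
Median log2 value minus the mean of the pool's own littermates (y axis) over the 77 channel genes (filled circles) and over all genes tested (crosses), for each RNA pool of the 6 groups (x axis). The 3 VP16-CREB pools at 3 weeks lie at -0.110, -0.283 and -0.261, and all other pools between -0.089 and 0.045. Littermate pools are part of the mean they are set against, which draws them toward 0.

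Marker genes of several cell types moved in the same 3 week pools. Of 12 microglia and macrophage markers 11 were called higher (median 2.39, summed intensity 55687 to 66432 against 13451 to 14092 in littermates), and of 10 astrocyte markers 3 (median 0.66, 63141 to 75407 against 44771 to 52960). Of 10 dentate granule cell markers 9 were called lower (median -1.51, 5505 to 6623 against 13440 to 13601), and of 6 CA1 markers 0 were called (median -0.59, 8927 to 9922 against 13678 to 14370). The 10 general neuronal markers had a median of -0.21 with 0 called (82143 to 110946 against 94380 to 129098). The channel genes had a median of -0.22. Of 8 CA3 markers 1 was called lower (median -0.14), and of 10 interneuron markers 2 were called higher (median 0.22). The lists for oligodendrocytes (0.02), endothelial cells and pericytes (0.09), choroid plexus (-0.76) and thalamus or striatum (-0.04) held no called gene. No marker was listed at 0. The part of these shifts in the channel results was not tested. At 1 week the microglia list had a median of 0.96 with 2 of 12 called (25675 to 29491 against 13063 to 17732), and in the A-CREB cohort 0.37 with 0 called (15650 to 21434 against 13387 to 17275). The astrocyte list stood at 0.11 with 1 of 10 called at 1 week (51814 to 63953 against 47153 to 47185) and at 0.15 with 0 called with A-CREB. Dentate granule markers stood at -0.43 at 1 week, with 9 of 10 genes below 0 and summed intensities apart (10424 to 10621 against 12937 to 15022), and at -0.27 with A-CREB, with 8 of 10 below 0 (10017 to 13041 against 10369 to 14131). CA1 markers stood at -0.39 at 1 week, with 6 of 6 below 0 (9669 to 9945 against 11207 to 14596), and at -0.25 with A-CREB, with 5 of 6 below 0 and 3 of 9 probe sets lower at an unadjusted p under 0.05 (10357 to 14045 against 12158 to 14644). None of the dentate or CA1 markers was called in either (limma), and at an unadjusted p under 0.05 the dentate list had 4 of 19 probe sets lower at 1 week and 3 with A-CREB, and the CA1 list 0 of 9 at 1 week. The general neuronal markers stood at 0.02 at 1 week and -0.13 with A-CREB, where the channel genes stood at -0.10 and -0.02.

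Voltage-gated Kv channels were the largest group, with 23 genes and 44 probe sets. At 3 weeks 1 probe set was called higher (2.27%, against 3.28% of all probe sets) and 3 lower (6.82%, against 0.651%). At an unadjusted p under 0.05 (limma), 12 were lower (27.3%, against 4.5% of all) and 1 higher (2.27%, against 8.97%). By gene, 19 of 23 were below 0 (median -0.23). All 4 calls were of modifier subunits, which form no channel alone and tune the Kv2 channels they join. Grouped after the values were seen, the modifier subunits (Kcnf, Kcng, Kcns and Kcnv) were 7 genes with 12 probe sets and a median of -0.55. The other Kv subunits were 16 genes with 32 probe sets, of which 0 were called, with a median of -0.22. At an unadjusted p under 0.05 (limma) 0 of these were higher (against 8.97% of all) and 6 lower (18.8%, against 4.5%).

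Kcng4 encodes Kv6.4, a modifier of Kv2 channels (chromosome 8, 119623854 to 119635680, GRCm38.p6). At 3 weeks its intensity was 189, 163 and 199 in the VP16-CREB pools and 106, 125 and 114 in the littermates. At 1 week it was 124 and 125 against 70.9 and 83.8. In the A-CREB cohort the order turned, with 89.8, 65.8 and 56.0 in the transgenic pools and 129, 118 and 105 in the littermates. The groups did not overlap in any of the 3 comparisons. The log2 difference was 0.63 (SE 0.16, 1.55-fold higher, adjusted p = 0.0463, limma) at 3 weeks, 0.63 (SE 0.20, adjusted p = 0.485) at 1 week and -0.68 (SE 0.16, unadjusted p = 0.000949, adjusted p = 0.654) with A-CREB. The effect of VP16-CREB at 3 weeks minus that of A-CREB was 1.31 (SE 0.23, adjusted p = 0.0143, limma). The 3 week call was not kept when any 1 of its 6 pools was left out (adjusted p 0.0732 to 0.201), and the call of the difference between the lines was not kept without the first littermate pool (0.0509) or the third transgenic pool (0.0591) of the 3 week cohort. With all pools in, the 3 week call was lost with no pseudocount (0.0517), with no intensity filter (0.121), with arrays centred on their median (0.0998) and with trend and robust variances (0.143). The call of the difference between the lines was lost with no filter (0.0501) and with trend and robust variances (0.0535).

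Kcns2 encodes Kv9.2, another silent modifier of Kv2 channels, and was read by a pair of probe sets (chromosome 15, 34837355 to 34843407). The brighter one, 1457325_at, measured 606, 561 and 603 in the VP16-CREB pools at 3 weeks and 879, 900 and 824 in the littermates, a difference of -0.55 (SE 0.13, adjusted p = 0.0302, limma). At 1 week it measured 761 and 724 against 1201 and 1020 (-0.57, SE 0.16, adjusted p = 0.315), so that transgenic pools were below littermates in both cohorts. The dimmer one, 1421342_at, measured 61.7, 80.6 and 79.9 against 144, 155 and 172 at 3 weeks (-1.0, SE 0.24, adjusted p = 0.035, limma). At 1 week its groups overlapped, with 173 and 218 against 238 and 170 (-0.05, SE 0.30), so the probe sets disagreed there. In the A-CREB cohort the differences were -0.14 (SE 0.13) and -0.20 (SE 0.24) and the groups overlapped for both. Neither call was kept when any 1 of the 6 pools of the 3 week cohort was left out (adjusted p 0.0671 to 0.133), nor with no intensity filter (0.096 and 0.0829).

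Kcng2 encodes Kv6.2, also a modifier subunit. It measured 342, 319 and 324 in the VP16-CREB pools at 3 weeks and 614, 540 and 422 in the littermates. The transgenic pools were close to each other while the littermates spread, and the groups did not overlap. The log2 difference was -0.64 (SE 0.15, 1.56-fold lower, adjusted p = 0.0229, limma). The call was kept without the third littermate pool, and was lost without any other single pool of that cohort (adjusted p 0.0507 to 0.13), with no intensity filter (0.071) and with only the arrays compared in the model (0.0655). It was -0.29 (SE 0.18) at 1 week, where the pools measured 244 and 255 against 325 and 288, and -0.21 (SE 0.15) with A-CREB.

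Of the modifier subunits that were not called, Kcng1 (Kv6.1) measured 395, 415 and 399 at 3 weeks against 614, 527 and 662, a difference of -0.56 (SE 0.19, adjusted p = 0.158). At 1 week it measured 347 and 417 against 602 and 599 (-0.65, SE 0.23, adjusted p = 0.643). The groups did not overlap at either time. Kcnv1 (Kv8.1), at probe set 1429741_at, measured 155, 167 and 120 against 283, 270 and 247 at 3 weeks (-0.82, SE 0.29, adjusted p = 0.186). Its 1 week groups overlapped, at 169 and 198 against 104 and 280. This was not the brightest Kcnv1 probe set. The brightest stood no lower than -0.64 at 3 weeks, the lowest value of a modifier gene at its brightest probe set.

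The pore-forming Kv subunits were lower on balance at 3 weeks without a call. Kcna4 (Kv1.4, an inactivating channel of axons) measured 330, 245 and 232 against 451, 517 and 370, a difference of -0.71 (SE 0.31, adjusted p = 0.323). Kcnh3 (Kv12.2, a channel active near rest), named after its values were seen, had all 3 probe sets lower with no overlap of groups, at -0.53, -0.52 and -0.69 (adjusted p 0.0768, 0.188 and 0.0848). Kcna1 (Kv1.1) and Kcna2 (Kv1.2), which limit firing from the axon, stood at -0.22 (SE 0.16) and -0.23 (SE 0.19). Kcnq3, a subunit of the M-current channel, stood at -0.50 (SE 0.24, adjusted p = 0.397), with 2380, 1690 and 1509 against 2526, 2850 and 2423. Kcnc1 (Kv3.1, the channel of fast-firing interneurons) stood at 0.01 (SE 0.17), with 1335, 1310 and 1549 against 1407, 1300 and 1449.

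In the group of calcium- and sodium-activated potassium channels (9 genes, 17 probe sets) Kcnu1 was the only call at 3 weeks. The group was formed by symbol, so it also holds the pH-sensitive Kcnu1 and the opposite-strand gene Kcnmb4os2. The group had 6 of 9 genes below 0 and a median of -0.14. Kcnu1 encodes SLO3, known as the pH-sensitive potassium channel of sperm (chromosome 8, 25848627 to 25937943). It measured 117, 136 and 122 in the VP16-CREB pools and 260, 266 and 313 in the littermates. The log2 difference was -1.10 (SE 0.16, 2.14-fold lower, adjusted p = 0.000991, limma), and the call was kept with any pool left out. At 1 week it measured 177 and 155 against 205 and 239 with no overlap (-0.40, SE 0.20, adjusted p = 0.993). With A-CREB the groups overlapped, at 150, 206 and 142 against 141, 176 and 153 (0.07, SE 0.16).

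The effect of VP16-CREB at 3 weeks on Kcnu1 differed from that of A-CREB by -1.17 (SE 0.23, adjusted p = 0.0272, limma). This call was lost without any 1 of the 6 pools of the 3 week cohort (adjusted p 0.055 to 0.0925), without A-CREB littermate pool 1 or 3 (0.0622 and 0.0522) and without the second A-CREB pool (0.0545). It was also lost with no intensity filter (0.0865) and without replicate 1 of both A-CREB cohort groups (0.0783). The littermates themselves differed in level between cohorts, at 280 ± 28.6 (SD, n = 3), 222 ± 24 (SD, n = 2) and 157 ± 17.7 (SD, n = 3).

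Kcnma1 encodes the BK channel, which opens with calcium and voltage together. Its brightest probe set measured 1142, 1519 and 1143 at 3 weeks against 1639, 1603 and 1576 (-0.35, SE 0.20, adjusted p = 0.524). Another, 1440728_at, stood highest of the channel probe sets past an unadjusted p of 0.05 at 1 week, at 1.17 (SE 0.52, adjusted p = 0.903), but on intensities of 31.8 and 25.7 against 4.84 and 9.84. The same probe set measured 321 to 547 over the 6 arrays of the 3 week cohort and 3.94 to 58.2 over the A-CREB cohort. Kcnn2, the SK2 channel of the afterhyperpolarisation, measured 602 and 569 against 738 and 862 at 1 week (-0.44, SE 0.17, adjusted p = 0.71), and 1145, 1224 and 1136 against 1388, 1686 and 1243 at 3 weeks (-0.29, SE 0.14, adjusted p = 0.386). It lay below littermates in each of these pools. Kcnmb4, the neuronal BK beta subunit, stood at -0.12 (SE 0.16) at 3 weeks.

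Inward rectifiers (7 genes, 14 probe sets) held no call at 3 weeks, with 6 of 7 genes below 0 (median -0.31). At an unadjusted p under 0.05 (limma) 0 probe sets were higher (against 8.97% of all) and 3 lower (21.4%, against 4.5%). Kcnj3 encodes GIRK1, a subunit of the channel opened by G protein coupled receptors. It measured 1502, 1398 and 1186 in the VP16-CREB pools and 2257, 2170 and 2178 in the littermates. The groups lay well apart (-0.70, SE 0.25, adjusted p = 0.191). At 1 week its littermates measured 1118 and 2617, so that pools of 1 group differed more than the groups did. Kcnj9 (GIRK3), named after its values were seen, stood at -0.61 and -0.57 at a pair of probe sets (adjusted p 0.192 and 0.3). Kcnj6 (GIRK2) stood at -0.32 (SE 0.20), with 158, 158 and 145 against 197, 240 and 155.

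The background potassium channels with a pair of pores in each subunit (8 genes, 9 probe sets) had a median of -0.07 at 3 weeks, with Kcnk6 as the only call. Kcnk6 encodes TWIK2, known for potassium efflux from macrophages (chromosome 7, 29221928 to 29232522). It measured 536, 601 and 572 in the VP16-CREB pools and 206, 197 and 172 in the littermates. Every transgenic pool was above every littermate pool by a wide margin. The log2 difference was 1.53 (SE 0.18, 2.88-fold higher, adjusted p = 0.000177, limma), and the call was kept with any pool left out. The microglia and macrophage markers rose in the same pools, and the part they have in this result was not tested.

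At 1 week Kcnk6 measured 517 and 339 against 354 and 313, with overlap (0.32, SE 0.22, adjusted p = 1). With A-CREB it measured 408, 454 and 314 against 309, 299 and 247 (0.44, SE 0.18, unadjusted p = 0.0296, adjusted p = 1). The 3 week effect minus the 1 week effect was 1.2 (SE 0.29, adjusted p = 0.294), and minus the A-CREB effect 1.09 (SE 0.26, adjusted p = 0.078). Neither difference was called. Kcnk1 (TWIK1, abundant in astrocytes and neurons) stood at -0.06 (SE 0.17) at 3 weeks, with 2393, 3348 and 3322 against 3196, 2889 and 3299.

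Kcne1l, also called Kcne5, encodes a single-pass accessory subunit of Kv channels (chromosome X, 142304753 to 142306198). It measured 415, 589 and 690 in the VP16-CREB pools at 3 weeks and 171, 150 and 167 in the littermates. The transgenic pools spread widely, and all were above the littermates. The log2 difference was 1.70 (SE 0.34, 3.26-fold higher, adjusted p = 0.0108, limma), and without the third transgenic pool it was 1.55 and no longer called (adjusted p = 0.0657). At 1 week it measured 187 and 219 against 137 and 91.6, with no overlap (0.80, SE 0.42, adjusted p = 1). With A-CREB the groups overlapped, at 121, 157 and 48.1 against 71.0, 137 and 81.1 (0.07, SE 0.34).

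**Figure D3:**
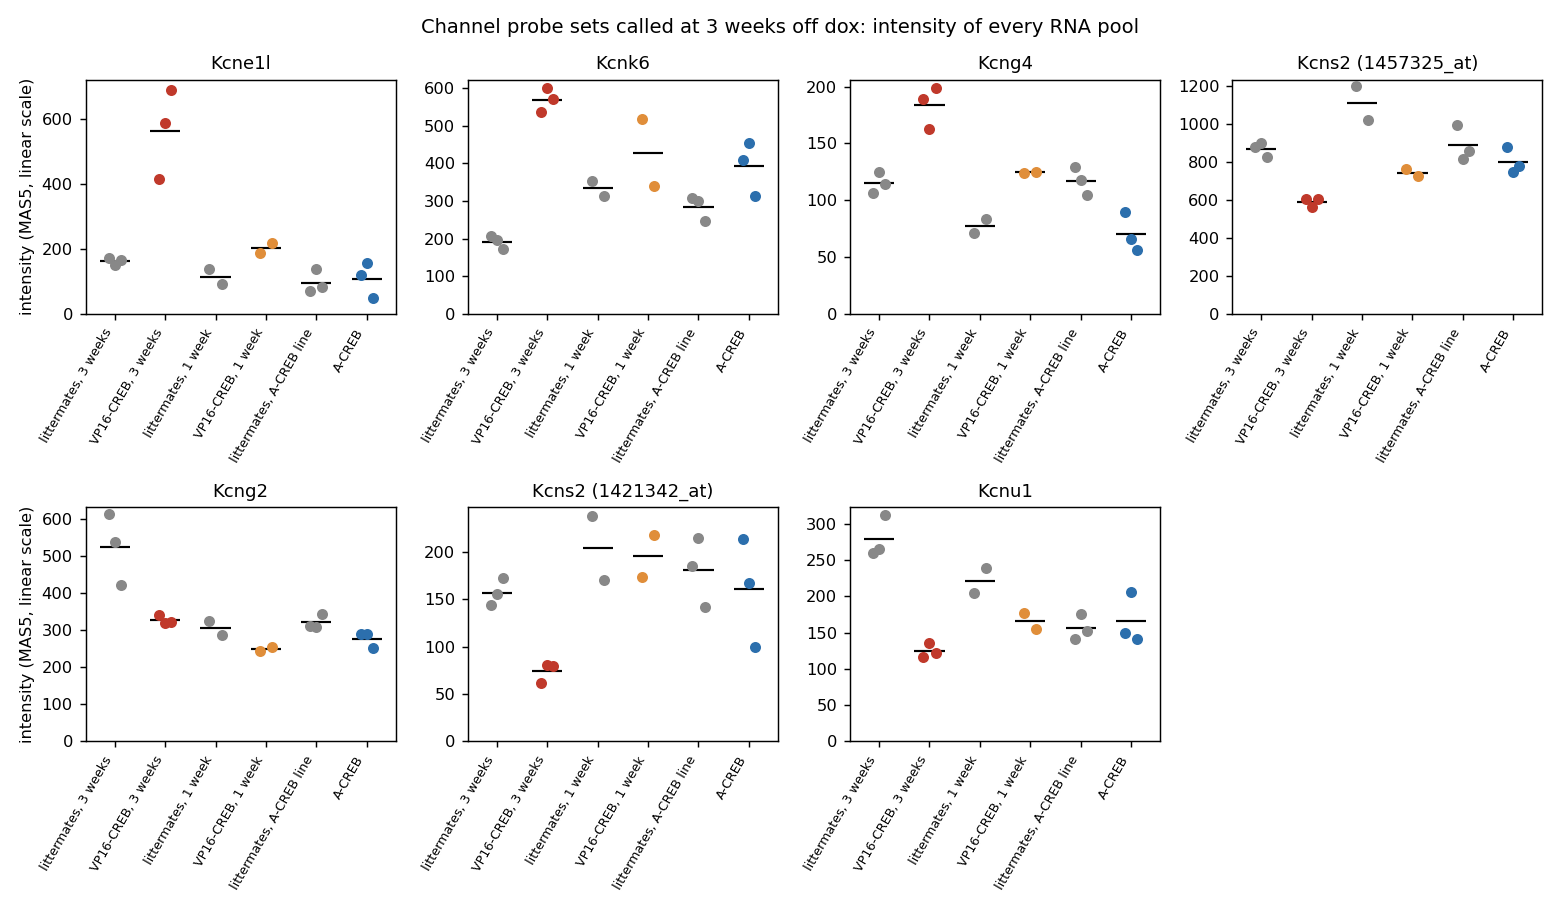
Intensity (y axis, linear MAS5 scale from 0) of the 7 channel probe sets called at 3 weeks off dox, in every RNA pool of the 6 groups (x axis). Points are pools and black lines group means, with littermates in grey. Kcnk6 and Kcne1l stand highest in the 3 VP16-CREB pools at 3 weeks, and Kcng4 lies above littermates in both VP16-CREB cohorts and below them with A-CREB.

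Sodium channels (8 genes, 20 probe sets) held no call at 3 weeks. At an unadjusted p under 0.05 (limma) 0 of the 20 were higher (against 8.97% of all) and 3 of the 20 lower (against 4.5% of all). The differences of 7 of 8 genes were below 0 (median -0.25). Scn4b, a beta subunit that supports resurgent current, measured 153, 111 and 162 against 274, 313 and 251 (-0.94, SE 0.31, adjusted p = 0.141). Scn3b, another beta subunit, was named after its values were seen. It measured 5060, 4299 and 3670 against 5874, 7505 and 6009 and came close to the threshold (-0.58, SE 0.15, adjusted p = 0.0574). The main alpha subunits of forebrain neurons lay nearer to 0: Scn1a stood at -0.03 (SE 0.19), Scn2a at -0.22 (SE 0.23) and Scn8a at -0.26 (SE 0.20). Scn2b differed more within the littermates (3359, 8137 and 3249) than between groups (6938, 3078 and 2468 in the VP16-CREB pools).

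Calcium channel alpha1 subunits, the pores, were 7 genes with 15 probe sets and a median of -0.26 at 3 weeks, with 0 called. At an unadjusted p under 0.05 (limma) 0 were higher (against 8.97% of all) and 1 lower (6.67%, against 4.5%). Cacna1e, the R-type channel of dendritic spines, measured 2102, 1867 and 1627 against 2671, 3728 and 2613. The groups did not overlap, and the difference was -0.67 (SE 0.19, adjusted p = 0.081). Its effects at 1 week (-0.18, SE 0.24) and with A-CREB (0.01, SE 0.19) were smaller than their errors. Cacna1a (P/Q-type) stood at -0.27 (SE 0.22), Cacna1c (L-type) at -0.12 (SE 0.28) and Cacna1h (T-type) at -0.34 (SE 0.19).

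The calcium channel accessory subunits bring pores to the membrane and set their gating. They were 3 alpha2delta genes (7 probe sets, median -0.20), 3 beta genes (8 probe sets, median -0.35) and 5 gamma genes (10 probe sets, median -0.14), with 0 calls at 3 weeks. At an unadjusted p under 0.05 (limma) 1 probe set was higher (against 8.97% of all) and 3 lower (against 4.5% of all) over the 3 groups. Cacna2d1, the gabapentin receptor, measured 2486, 3142 and 2437 against 4111, 4022 and 3851 (-0.58, SE 0.26, adjusted p = 0.356). Cacnb4 stood at -0.17 (SE 0.21). Cacng4 stood the other way, with 415, 334 and 401 against 250, 253 and 264 (0.56, SE 0.19, adjusted p = 0.149). Its groups did not overlap.

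Of the HCN genes, Hcn2 and Hcn3 passed the intensity filter. Hcn2 stood at -0.00 (SE 0.28) at 3 weeks. Hcn3 measured 243, 275 and 247 against 218, 143 and 169 at 3 weeks (0.52, SE 0.23, adjusted p = 0.32). With A-CREB it measured 77.9, 132 and 106 against 155, 133 and 132 (-0.40, SE 0.23, adjusted p = 1). Its pools lay apart in opposite directions, with A-CREB by less than the rounding shown, and the difference between the effects was not called (0.92, SE 0.32, adjusted p = 0.317).

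After 1 week off dox no channel probe set was called (0 of 148, against 0.237% of all probe sets, limma). At an unadjusted p under 0.05 there were 2 higher (1.35%, against 3.67% of all) and 4 lower (2.70%, against 1.6%). The pools did not overlap for 17 on the high side (11.5%, against 15.7%) and 20 on the low side (13.5%, against 12.9%), shares near or under the background. By gene 50 of 77 were below 0 with a median of -0.10, against -0.014 over all genes. The 6 past the unadjusted threshold were Kcng4 and a Kcnma1 probe set on the high side, and Kcns2, Kcng1, Kcnn2 and Kcnc4 on the low side. Kcnc4 (Kv3.4, a fast inactivating channel), at probe set 1425089_at, measured 224 and 174 against 329 and 264 (-0.56, SE 0.24, adjusted p = 0.839). Its brighter probe set, 1425090_s_at, stood no lower than -0.27.

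The probe sets that were lower at 3 weeks were mostly lower at 1 week too, as were those of the whole array. Of the 23 that were lower at an unadjusted p under 0.05 at 3 weeks, 19 (82.6%) were below 0 at 1 week, against 975 of 1218 (80.0%) over all probe sets chosen the same way. These cohorts share no array. The 3 week effect minus the 1 week effect was called for no channel probe set (0 of 148, against 0.0037% of all, limma), and at an unadjusted p under 0.05 for 2 higher (1.35%, against 3.08%) and 4 lower (2.70%, against 1.91%).

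With A-CREB no channel probe set was called, as on the whole array (0 of 148 and 0% of all, limma). At an unadjusted p under 0.05 there were 2 higher (1.35%, against 2.29% of all) and 6 lower (4.05%, against 2.04%). The pools did not overlap for 5 on the high side (3.38%, against 3.54%) and 11 on the low side (7.43%, against 3.28%). The median over the 77 genes was -0.02, against 0.006 over all genes, with 42 below 0. After Kcng4, the lower ones were single probe sets of calcium channel subunits and Kv3 genes. Cacnb2, at probe set 1452476_at, measured 461, 456 and 277 against 650, 528 and 563 (-0.56, SE 0.19, adjusted p = 1). Its brighter probe set, 1456401_at, stood at -0.19. Cacnb1 measured 349, 425 and 451 against 514, 586 and 836 (-0.62, SE 0.24), and Cacng3, an AMPA receptor partner, 695, 784 and 336 against 807, 1088 and 787 (-0.63, SE 0.27). Kcnc4 (1425089_at) stood at -0.50 (SE 0.19) and Kcnc1 (1456944_at) at -0.29 (SE 0.13). The brightest Kcnc1 probe set (1443855_at) stood the other way at 0.18, and the brightest of Kcnc4 (1425090_s_at) no lower than -0.36. At 3 weeks of VP16-CREB the probe sets lower with A-CREB stood at -0.04 for Cacnb2 (1452476_at), -0.36 for Cacnb1 and -0.23 for Cacng3. Kcnc4 (1425089_at) stood at -0.26 and Kcnc1 (1456944_at) at 0.07 there, and none of them was called.

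The effects of both lines were set against each other as the difference of differences. Of the 148 probe sets 1 was called higher in VP16-CREB at 3 weeks than in A-CREB (Kcng4, 0.676%, against 0.828% of all probe sets) and 1 lower (Kcnu1, 0.676%, against 0.0592%). At an unadjusted p under 0.05 there were 6 higher (4.05%, against 6.02%) and 7 lower (4.73%, against 2.68%). Of the 23 probe sets lower at 3 weeks, 17 (73.9%) were below 0 with A-CREB, against 769 of 1218 (63.1%) over all probe sets chosen that way.

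**Figure D4:**
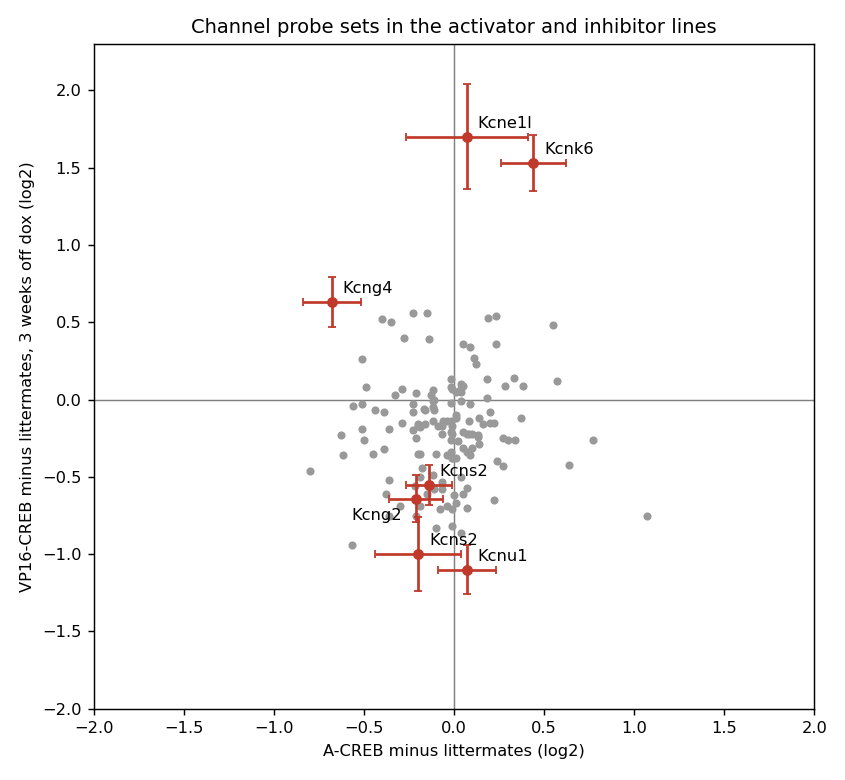
Log2 difference from littermates with VP16-CREB at 3 weeks off dox (y axis) against that with A-CREB (x axis) for the 148 channel probe sets. Red points are the 7 probe sets called at 3 weeks, with bars of 1 SE in each direction, and grey points are the others. Kcng4 lies at 0.63 and -0.68 in opposite directions, and Kcnu1 at -1.10 and 0.07.

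Partner genes anchor these channels, place them along the axon or tune them. At 3 weeks, of 22 partner genes that passed the filter, 0 were called at their brightest probe set (median -0.13, 16 of 22 below 0). A pair was called lower at a dimmer probe set: Cntnap2, which clusters Kv1 channels along axons (32.6, 51.7 and 87.3 against 124, 151 and 107, log2 difference -1.10, SE 0.27, adjusted p = 0.0355, limma), and Pex5l, the HCN partner TRIP8b (187, 210 and 266 against 356, 348 and 332, -0.63, SE 0.16, adjusted p = 0.0466). Their brightest probe sets stood at -0.23 (SE 0.16) and -0.15 (SE 0.21). The Kv4 complex genes (10 genes, median -0.46) had 4 called lower, namely Kcnd2, Kcnip2, Kcnip4 and Kcnab1, at -0.83, -0.74, -0.75 and -0.80. The GABA-A receptor subunits (9 genes, median -0.19) had 1, Gabrd at -0.89.

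Of the 43 channel genes with several probe sets, 12 had differences of both signs at 3 weeks, 27 at 1 week and 25 with A-CREB. In none of them (0 of 43) did probe sets pass an unadjusted p of 0.05 in both directions. Other annotated genes overlap the loci of Kcng4, Kcns2, Kcng2, Kcnh3 and Cacna1e. The arrays of the 3 week cohort stood apart from the others, with median intensities of 118.9 to 129.3 against 75.0 to 93.2 and correlations with the other arrays of 0.885 to 0.933 (60 pairs), against 0.954 to 0.985 within groups (14 pairs). Each transgenic group was therefore compared only with littermates of its own cohort, and the differences between cohorts as differences of such effects.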

How the data were processed

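The authors deposited MAS5 intensity values on a linear scale, per the submitters' processing notes (version not given there). The trimmed mean (2% left out at each end) was 500 on all arrays. No build or annotation was given in the sources used here. The deposited intensity of each probe set was taken as log2 of the value plus a pseudocount of 10, so a log2 difference or fold is on that scale and understates changes of dim probe sets. MAS5 subtracts mismatch signal, which makes dim values noisy. For arrays, their number limits the precision.

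The 64 control probe sets were left out. Of the rest, 34945 have 1 symbol, 932 several and 9160 none in the platform annotation. All 77 genes matched RefSeq (GRCm38.p6) by gene ID. Where annotated genes overlap, which of them a probe set reads was not checked.

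All 16 arrays entered 1 limma model with a mean per group (lmFit and eBayes, two-sided, residual degrees of freedom 10, prior 3.44). P-values were adjusted by Benjamini-Hochberg over 27047 probe sets, and calls were made at 0.05. The 3 week effect was set against the 1 week effect and against the A-CREB effect by contrasts, which reuse the 3 week arrays. The labels name the pools of a group as separate samples. R 4.3.3, limma 3.58.1 and Python 3.11.15 were used, and the fit was tested on simulated data.

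The channel genes, the lists and the tests were chosen with earlier results of these data known. Named are all called probe sets, the 6 largest differences each way per transgene comparison among probe sets with an unadjusted p under 0.05 and no overlap of pools, the gene of highest mean in each role group, and a list of textbook channel genes, together 40 probe sets of 37 genes. Also named are partner genes called at any probe set. Gene summaries use the probe set of highest mean. The replicate numbers were not used to pair the pools in the main model, as the labels do not say whether same-numbered pools belong together. The alternatives were no pseudocount or one of 25, no filter or a filter on the mean, quantile normalization, centred arrays, array weights, a replicate block, only the arrays compared, 1 probe set for each gene, robust variances with a trend, and each pool left out in turn. The early A-CREB arrays were not analysed here.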

Additional observations from a re-analysis of the deposited data

Results flagged for a closer look

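Kcng4 differed between the lines. Its effect with VP16-CREB at 3 weeks minus that with A-CREB was 1.31 on the log2 scale (SE 0.23, adjusted p = 0.0143, limma), with transgenic pools above littermates in 3 of 3 pools of the first and below them in 3 of 3 of the second. Kcnu1 differed as well, by -1.17 (SE 0.23, adjusted p = 0.0272, limma), and was below littermates in 3 of 3 pools with VP16-CREB while the A-CREB groups overlapped. Hcn3 was above littermates in every VP16-CREB pool and at or below the lowest littermate in every A-CREB pool. Its difference of 0.92 did not pass the threshold (adjusted p = 0.317, limma). Kcnn2 was below littermates in every VP16-CREB pool and above them in every A-CREB pool, and its difference of -0.43 did not pass either (adjusted p = 0.556, limma).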

How the results depend on the processing

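At 3 weeks 7 channel probe sets were called in the model as described. There were 3 with no intensity filter, 12 after quantile normalization, 16 with only the arrays compared, 34 with array weights and 2 to 4 with 1 pool left out, the fewest without the third transgenic pool. The count lower at an unadjusted p under 0.05 (23) was 39 with only the arrays compared, 47 with array weights and 13 to 22 with 1 pool left out, again fewest without the third transgenic pool. The difference between the lines (2 calls) had 0 with no filter, 1 with trend and robust variances, 1 without replicate 1 of both A-CREB cohort groups and 0 to 2 with 1 pool left out. The labels do not say whether same-numbered pools belong together, and the correlations of such pools ran from -0.23 to 0.41. With the replicate block there were 5 calls at 3 weeks and 1 between the lines. The block ended the 3 week calls of Kcng2 (adjusted p = 0.0678, limma), Kcng4 (0.068) and Kcns2 1457325_at (0.0614) and the call of Kcnu1 between the lines (0.0712), and added Scn4b at 3 weeks (0.0365). The median at 3 weeks (-0.215) was -0.288 with arrays centred on their median and -0.283 to -0.142 with 1 pool left out. At 1 week the median (-0.096) was -0.107 after quantile normalization, -0.203 with centred arrays and -0.101 to -0.045 with 1 pool left out, where the pool left alone is taken to vary as the others do. With A-CREB (-0.016) it was -0.062 to -0.036 with 1 pool left out. Centring moved the median of all genes to -0.073 at 3 weeks and -0.121 at 1 week. The counts of calls at 1 week, with A-CREB and for the 3 week effect minus the 1 week effect were 0 in every alternative run. Of 9 called single results, Kcnk6 and Kcnu1 at 3 weeks kept the call in every alternative and 7 lost it in at least 1. Of 113 not called, 10 gained it in at least 1. None that passed an unadjusted p of 0.05 changed sign. The cause of these changes was not tested.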
